A study of Rattus norvegicus with 84 samples.

Results

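T cells and natural killer (NK) cells were followed through 10 of their genes, Cd3e, Cd3d, Cd3g, Lck, Cd2, Il12rb2, Cd4, Cd8a, Zap70 and Prf1, in the RNA of extracellular vesicles (EVs), the small membrane particles that cells release. The 10 genes were taken by symbol from a table of 18782 annotated rat genes, and all 10 are listed in it. They were selected on their plasma EV mRNA counts over the 7 groups described next, so their plasma levels and fold changes are given as a description, with no test and no call. EVs were prepared from plasma and from brain of wild-type male Sprague–Dawley rats in 7 groups of 3 samples. Rats with a stroke were 8 to 12 weeks old. The age of the healthy rats is not given in the sources used here, so whether they were of the same age is not known. The labels call the 3 samples of a group biological replicates, and the study's text gives 3 animals per group. Healthy rats had no stroke. Control rats had a transient occlusion of the right middle cerebral artery for 90 min and received saline into the carotid artery 3 days later. Rats of the hNSCs groups had the same occlusion and received human neural stem cells (hNSCs) in place of saline. Control and hNSCs rats were sampled 4, 10 and 31 days poststroke, so that the samples of day 4 were taken soon after the injection. The same healthy group stands against all 3 days, and its rats received neither saline nor cells. The labels give the fluid as plasma in some fields and as serum in others, and it is called plasma here.

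The products of several of these genes act in sequence at the T cell receptor. The T cell receptor signals through the CD3 chains, encoded by Cd3e, Cd3d and Cd3g. The coreceptors CD4 and CD8 bring the kinase Lck to the receptor, Lck phosphorylates the CD3 complex and the kinase Zap70 docks there to pass the signal on. Cd2 encodes an adhesion receptor of T and NK cells, Il12rb2 a chain of the receptor for interleukin-12, and Prf1 perforin, the pore-forming protein of killer cells. In the rat, CD4 is also carried by monocytes and macrophages. Lymphocytes are known to become scarce in blood soon after stroke. EV RNA is a bulk sample, so fewer cells of a type and less RNA per cell cannot be told apart.

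The values are read counts divided by the library total over annotated genes, scaled by TMM (a factor that balances libraries on the bulk of their genes) and brought to a common total (CPM). FPKM, a level per gene length, was used to compare genes with each other. The 21 plasma mRNA libraries held 11878367 to 49824782 counts and the 21 brain libraries 13221461 to 37651652. Annotated genes took 45.1% to 75.6% of the counts in plasma and 3.18% to 51.9% in brain, and 18.7% to 53.7% of annotated genes had no count in a plasma library. The mRNA libraries were made without molecular tags. Of the 210 plasma values of the 10 genes, 37 were 0 and the smallest of the others was 31 counts, so a gene was either absent from a library or present with many reads. Reads of a library without molecular tags are not independent molecules, and counting intervals are therefore not given.

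Regulatory sequence of the genes was taken from RefSeq (build GRCr8, 250 bases before to 50 after a gene start), in which 9 of the 10 members matched and Cd4 had no entry. Lck and Prf1 are shown because they are the most abundant member by count and the killer-cell effector. Capitals mark 3 short motifs, searched on both strands (a match on the other strand reads as the reverse complement): CAGGAAG, bound by Ets factors, TGTGGT, bound by Runx factors, and the E-box CAGNTG. The Lck window is chr5:147201218-147201517 on the minus strand, and the Prf1 window is chr20:29788790-29789089 on the plus strand.
Lck: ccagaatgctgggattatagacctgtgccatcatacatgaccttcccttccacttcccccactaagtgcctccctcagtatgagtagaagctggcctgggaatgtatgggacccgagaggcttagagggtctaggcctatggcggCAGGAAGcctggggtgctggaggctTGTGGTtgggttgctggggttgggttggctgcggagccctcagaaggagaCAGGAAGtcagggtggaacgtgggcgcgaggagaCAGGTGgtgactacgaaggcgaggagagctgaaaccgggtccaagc
Prf1: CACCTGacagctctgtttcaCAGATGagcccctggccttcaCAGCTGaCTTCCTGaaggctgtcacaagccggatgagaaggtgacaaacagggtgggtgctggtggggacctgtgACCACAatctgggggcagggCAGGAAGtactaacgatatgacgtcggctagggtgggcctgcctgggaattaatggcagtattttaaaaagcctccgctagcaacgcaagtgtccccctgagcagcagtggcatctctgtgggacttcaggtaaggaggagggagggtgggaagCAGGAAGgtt
The Ets motif was present in 5 of the 11 windows of the members, against 12.5% of all 33469 windows. The Runx motif was present in 4 of 11 against 17.3%, and the E-box in 6 of 11 against 50.2%. These are matches of letters, and no binding was measured.

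All 10 genes were detected in each of the 3 healthy plasma libraries, and fewer were detected 4 days poststroke. The control libraries of day 4 held between 4 and 6 of the 10 genes. The summed level of the 10 genes was 359.8 to 566 CPM in healthy rats and 40.6 to 186 CPM in control rats at day 4, and the ranges did not overlap. Over the same libraries, the share of all annotated genes detected was 62.9% to 72.7% in healthy rats and 53.0% to 65.5% in control rats at day 4, and its part in the difference was not tested. In hNSCs rats at day 4 it was 123 to 329 CPM, also below the healthy range. At later days the summed level was 343 to 457 CPM (control, day 10), 158 to 666 CPM (control, day 31) and 108 to 554 and 439 to 541 CPM (hNSCs, days 10 and 31), all overlapping the healthy range.

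The CD3 chains were low or absent at day 4. Cd3e was at 14.0, 9.59 and 7.93 CPM in the 3 healthy libraries and at 0 in all 3 control libraries of day 4. Cd3d was at 28.7, 34.0 and 32.1 CPM in healthy rats and at 12.5, 0 and 0 CPM in control rats at day 4. Cd3g was at 34.6, 31.6 and 21.3 CPM and at 0, 0 and 7.68 CPM in the same groups. For each of the 3 chains every control library of day 4 lay below every healthy library. At day 10 the control values of Cd3e were 0, 0 and 8.08 CPM and those of Cd3d 52.0, 0 and 24.6 CPM, so that single libraries were still at 0. By day 31 Cd3g in control rats was at 6.93, 11.6 and 60.9 CPM, and replicate 3 of that group stood above all healthy libraries.

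The kinases and the coreceptor gene Cd8a lay lower as well. Lck, the most abundant of the 10 by count, was at 232, 111 and 122 CPM in healthy rats and at 6.65, 31.7 and 75.3 CPM in control rats at day 4, a log2 fold change of −2.03 ± 0.90 (SE). It was back at 151, 134 and 217 CPM at day 10. Zap70 was at 40.3, 32.2 and 31.6 CPM in healthy rats and 2.84, 0 and 21.3 CPM at day 4. On this scale neither kinase had a control library of day 4 inside the healthy range, whereas in FPKM the highest control library of Lck (10.8) lay above the lowest healthy one (7.89). Cd8a was at 37.4, 33.4 and 32.3 CPM in healthy rats and 6.60, 2.80 and 9.23 CPM at day 4, a log2 fold change of −2.47 ± 1.26 (SE). Cd4 was at 73.1, 25.0 and 115 CPM in healthy rats and 12.0, 14.1 and 64.6 CPM at day 4, and it was the only 1 of the 10 genes whose groups overlapped on this scale, with a log2 fold change of −1.23 ± 0.73 (SE). Cd2 was at 48.7, 33.4 and 41.5 CPM in healthy rats and 0, 10.3 and 8.02 CPM at day 4, and at day 10 its control values of 16.6, 23.9 and 29.0 CPM were still all below the healthy ones, though not in FPKM (highest control 6.52, lowest healthy 4.37).

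At days 10 and 31 single control libraries reached the healthy range for the kinases and coreceptors, and the spread within groups was wide. Lck was at 40.5, 72.9 and 228 CPM in control rats at day 31, where replicate 3 was near the highest healthy library and the other two lay below all healthy ones. Zap70 was at 24.4, 61.7 and 19.0 CPM at day 10 and 0, 3.69 and 79.8 CPM at day 31. Replicate 3 of day 31 was again the high one and stood above all healthy libraries. Cd8a was at 13.7, 34.4 and 15.0 CPM at day 10 and 27.9, 5.08 and 38.7 CPM at day 31. Cd4 was at 41.0, 82.6 and 35.3 CPM and 41.8, 34.3 and 86.8 CPM, inside the healthy range in all 6 libraries. Cd2 was at 15.4, 28.5 and 68.3 CPM at day 31, with replicate 3 above all healthy libraries. In control rats of day 31, replicate 3 had the highest value of the group for 9 of the 10 genes, and Cd3e was the exception.

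The killer and interleukin-12 genes were not detected in control rats at day 4. Il12rb2 was at 38.2, 47.2 and 17.8 CPM in healthy rats, at 0 in all 3 control libraries of day 4 and at 18, 35.8 and 63.6 CPM at day 10. At day 31 it was at 8.64, 12.6 and 40.0 CPM. Prf1 was at 19.0, 2.70 and 9.88 CPM in healthy rats, at 0 in all 3 control libraries of day 4 and at 15.2, 10.4 and 45.1 CPM at day 10. At day 31 it was lower again, at 1.16, 2.44 and 5.09 CPM, a mean of 2.90 against 10.5 CPM in healthy rats. No fold is given for these genes or for Cd3e, since all libraries of 1 group were at 0.

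**Figure D1:**
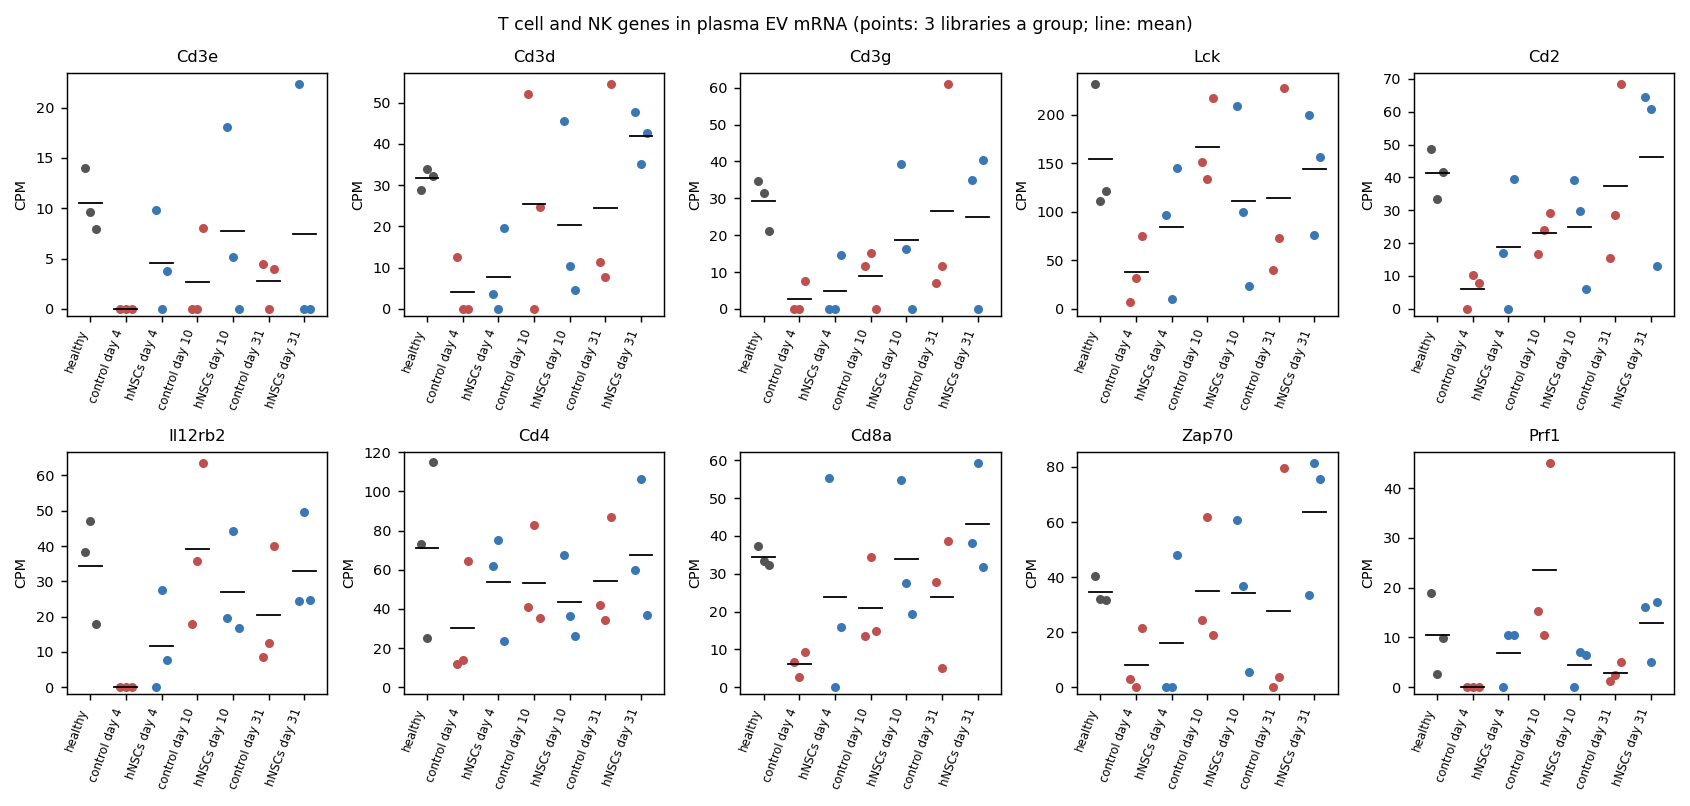
Level of each of the 10 genes in plasma EV mRNA, in CPM on a linear axis from 0, for the 7 groups of 3 libraries (points) with the group mean (line). In control rats at day 4, Cd3e, Il12rb2 and Prf1 are at 0 in all 3 libraries and 9 of the 10 genes lie wholly below the healthy libraries on this scale.

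In all, 9 of the 10 genes had every control library of day 4 below every healthy library, where 8.4% of the 14720 genes tested did (1237 genes). In the deposited FPKM, a scale added after seeing the data, 8 of the 10 did, without Lck, against 4.8% of all genes. These values chose the genes, and nothing is read from the comparison of the shares. At day 10, 2 of the 10 (Cd3g and Cd2) were wholly below healthy, against 8.61% of all genes, and at day 31 only Cd3e was, against 7.84%. In FPKM only Cd3g was at day 10 (8.46% of all genes) and none at day 31 (3.91%). The median difference of the 10 genes in mean log2(CPM + 1) was −3.19 at day 4, −0.54 at day 10 and −0.86 at day 31, beside −0.22, −0.30 and −0.16 over all genes tested.

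Compared per gene length in healthy plasma, Lck had the highest mean (21.6 ± 16.8 FPKM, SD, n = 3), followed by Cd3d (12.3 ± 4.23), Cd3g (10.9 ± 5.81) and Cd2 (10.1 ± 5.62). Cd4 (6.63 ± 5.39), Cd8a (5.96 ± 3.36) and Zap70 (3.83 ± 2.45) came next. The lowest were Prf1 (1.73 ± 1.70), Cd3e (1.61 ± 1.06) and Il12rb2 (1.26 ± 0.679). Neighbours in this order lay within an SD of each other. Of the 3 CD3 chains, which enter 1 receptor complex, Cd3e had the lowest mean, Cd3d and Cd3g lay within an SD of each other, and Cd3e was at 0 in 10 of the 21 plasma libraries, against 4 for Cd3d and 7 for Cd3g. Lck and Cd4 were detected in all 21 libraries.

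The effect of hNSCs was read against control rats of the same day. At day 4 the mean CPM of all 10 genes was higher in hNSCs rats than in control rats, and the groups overlapped for each gene, where 3.34% of all genes were wholly higher. On the log2(CPM + 1) scale 9 of the 10 were higher and Zap70 was lower (0, 0 and 48.2 CPM in hNSCs rats), with a median difference of 0.99 beside −0.01 over all genes tested. Il12rb2 was at 0, 27.4 and 7.65 CPM, Prf1 at 0, 10.4 and 10.4 CPM and Cd3e at 9.81, 0 and 3.81 CPM in the hNSCs rats, so that 2 of 3 libraries held each gene that was absent from the control rats. Lck was at 97.0, 10.3 and 145 CPM, a log2 difference of 1.15 ± 0.88 (SE). Cd8a was at 55.3, 0 and 16 CPM, a log2 difference of 1.93 ± 1.24 (SE). Replicate 2 of the hNSCs rats held only 4 of the 10 genes and replicate 3 all 10. The log2 differences of the 7 genes with counts in both groups ran from 0.82 to 1.93, with SEs of 0.72 to 2.58. Their direction rested in part on replicate 3 of the hNSCs rats. Without it, the log2 difference of Cd3d was −1.21, and Cd3g and Zap70 were at 0 in the remaining hNSCs libraries.

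At day 10 the median difference of the 10 genes between hNSCs and control rats was −0.25 and 4 of 10 were higher, beside a median of 0.30 over all genes. Prf1 was the exception that separated, at 0, 7.11 and 6.43 CPM in hNSCs rats and 15.2, 10.4 and 45.1 CPM in control rats, with 2.38% of genes wholly lower in this comparison. At day 31 the median was 0.74 and 8 of 10 were higher, beside −0.21 over all genes. Zap70 was at 33.3, 81.5 and 75.7 CPM in hNSCs rats at day 31 and at 0, 3.69 and 79.8 CPM in control rats. The comparisons with healthy rats and with hNSCs rats share the control libraries of day 4, so a low value there enters both.

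The other genes of the T and NK cell programs were taken from 4 lists with 89 genes, of which 88 are in the table and 82 passed the filter in plasma. The lists were chosen with earlier results of these data known and are read in the libraries that chose the members. Their plasma values are therefore not independent of those of the members. At day 4, 73 of the 82 were lower in control than in healthy rats, 28 wholly so, where 59.8% of all genes tested were lower and 8.4% wholly so. In FPKM 21 of the 82 were wholly lower, against 4.8% of all genes. A gene was called when it differed by more than 1.5-fold with a Benjamini-Hochberg p below 0.05. The edgeR test called 0 of them (0.0611% of all genes were called lower), 16 were lower and 0 higher at an unadjusted p under 0.05 (4.46% of all genes were lower), DESeq2 called 13 (6.47% of all genes) and limma on FPKM 0. Without replicate 3 of the control rats, edgeR called 1, Skap1 (0.0476% of all genes). Of the 25 genes of T cell receptor signalling, all were lower, with a median difference of −2.16. Lat, the scaffold that Zap70 phosphorylates, was at 45.8, 234 and 22.2 CPM in healthy and 8.12, 3.34 and 16.6 CPM in control rats at day 4. Of the 25 tested genes of T cell subsets and homing the median was −1.63. Tcf7, a transcription factor of T cells, was at 455, 248 and 318 CPM in healthy and 46.2, 26.5 and 106 CPM in control rats. Lat was named after its values were seen. The 23 tested NK and cytotoxic genes had a median of −1.33 and the 9 of the interleukin-12 pathway one of −0.37.

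At later days and after hNSCs the medians of these genes were closer to 0. For all 82 genes the median difference from healthy was −0.36 at day 10 and −0.81 at day 31. For hNSCs against control it was 0.62 at day 4, 0.09 at day 10 and 0.26 at day 31. The edgeR test called 0 of the 82 in each of these 5 comparisons, where it called 0% of all genes apart from 0.00679% for hNSCs at day 4. At an unadjusted p under 0.05 were 2, 5, 5, 0 and 5 of them, as were 5.6%, 4.75%, 3.94%, 4.06% and 8.57% of all genes. DESeq2 called 5, 8, 10, 7 and 7 of them and 8.66%, 4.7%, 6.23%, 8.15% and 11.9% of all genes, and limma on FPKM called 0 of them. Without 1 library, edgeR called Skap1 (replicate 3 of the control rats left out, 0.0204% of all genes called) or Stat4 (replicate 3 of the hNSCs rats left out, 0.299%) for hNSCs against control at day 4. The test of whether the effect of hNSCs at day 4 differed from that at day 10 or 31 called 0 of the 82 genes and 0.00679% of all genes in each case (edgeR), with 8 and 6 genes at an unadjusted p under 0.05, as were 5.69% and 9.96% of all genes. It was not run with another tool.

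**Figure D2:**
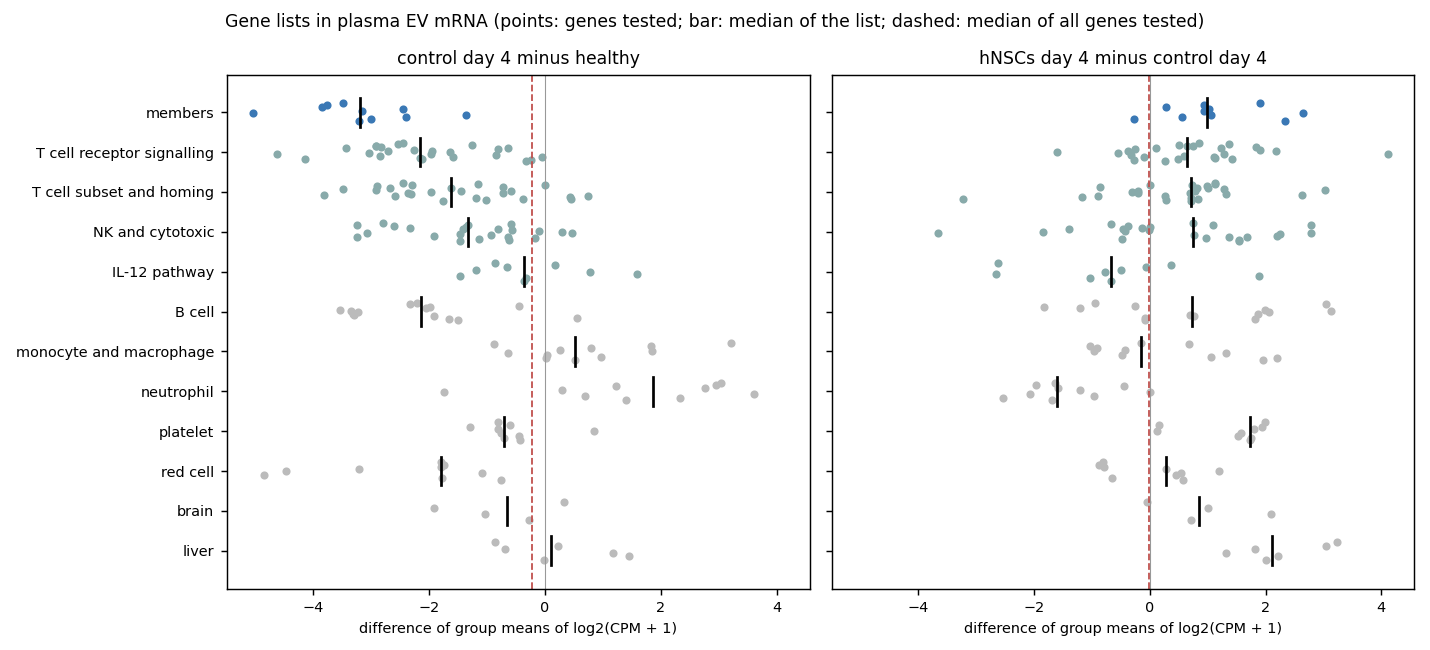
Difference of group means of log2(CPM + 1) in plasma EV mRNA for the tested genes (points) of each list, with the median of the list (bar) and of all genes tested (dashed line), for control minus healthy at day 4 (left) and hNSCs minus control at day 4 (right). At left the members have a median of −3.19, B cell genes −2.14, red cell genes −1.79 and neutrophil genes 1.86.

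Markers of B cells, red cells and neutrophils also differed between healthy and control rats at day 4. The 14 B cell genes summed to 358 to 514 CPM in healthy and 55.1 to 166 CPM in control rats, with Cd37 the most abundant in both groups and Fcrla at 0 in all 3 control libraries. The 9 red cell genes, led by Hba2, summed to 43789 to 80019 CPM in healthy and 11771 to 21604 CPM in control rats, and edgeR called 1 of them, Alas2, lower. The 11 neutrophil genes, led by S100a9, were on the other side, at 162 to 364 CPM in healthy and 659 to 2970.2 CPM in control rats. Neutrophil genes thus lay higher in control rats while T and B cell genes lay lower. Of the neutrophil genes, Ltf was at 0 in both groups and Ngp in control rats. The 12 monocyte and macrophage genes, led by Lyz2, summed to 338 to 1567 CPM in healthy and 1458 to 5122 CPM in control rats, with overlap. The ranges also overlapped for the 9 platelet genes led by Pf4 (1298 to 20649.9 and 1156 to 5758 CPM), the 6 liver genes led by Alb (1805 to 4936 and 120.1 to 17705 CPM) and the 6 brain genes led by Map1b (80.7 to 424 and 82.3 to 128 CPM). The part of these cells in the T cell values was not tested.

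Across the 21 plasma libraries the 10 genes varied together to different degrees. The correlation of log2(CPM + 1) with the mean of the other 9 was highest for Lck (r = 0.85) and Cd2 (0.79) and lowest for Cd4 (0.43) and Prf1 (0.46). After subtracting group means it was 0.82 for Lck and 0.73 for Zap70, but −0.01 for Il12rb2 and −0.05 for Prf1. The genes of a library share its depth and composition, so these values are descriptions. Of the other 14710 genes, the 10 most like the mean of the members were Tcf7 (r = 0.94), Bcl11b (0.92), Rasgrp1 (0.91), Scml4 (0.88), Satb1 (0.88), LOC499229 (0.87), Zbp1 (0.86), Ms4a4a (0.86), Gimap4 (0.86) and Skap1 (0.85). Among these, 5 are in the lists of other T cell genes. The median r of all genes was 0.00817. It was 0.50 for T cell receptor signalling, 0.42 for T cell subsets and homing and 0.42 for NK and cytotoxic genes. For the interleukin-12 pathway it was 0.05, for B cell genes 0.49 and for red cell genes 0.70, the highest of the lists. The remaining cell lists lay between −0.32 (liver) and 0.15 (platelet).

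In brain EVs the same genes were nearly absent. Cd3e, Cd3d, Cd2 and Prf1 were at 0 in all 21 brain libraries, and the third CD3 chain, Cd3g, was seen in 1 library. Of the 210 brain values 165 were 0. Lck was above 0 in 5 libraries, with at most 6.51 CPM, Zap70 in 6 and Cd8a in 8. Cd4 was the exception and was above 0 in 20 of the 21 libraries. It was at 0, 17.5 and 9.57 CPM in healthy brain and at 34.8, 14.9 and 44.4 CPM in control brain at day 4. Its control values were 25.6, 88.1 and 71.2 CPM at day 10 and 42.5, 59.2 and 28.5 CPM at day 31. The control libraries of days 10 and 31 all lay above the healthy ones, as did those of 7.05% and 18.9% of all genes. The log2 fold changes at days 4, 10 and 31 were 1.75 ± 0.94 (SE), 2.72 ± 0.97 (SE) and 2.21 ± 0.95 (SE), with edgeR adjusted p = 0.421, 0.245 and 0.592.

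Only Cd4, Cd8a and Il12rb2 of the 10 passed the filter in brain, and edgeR called 0 of them in any of the 6 comparisons. Against healthy rats it called 0.73%, 0.537% and 0.00689% of 14515 genes higher at days 4, 10 and 31, and for hNSCs against control it called 0% at each day. Il12rb2 and Cd8a were at 0 in whole groups and passed the filter through the groups that held them. No count is therefore taken over the 3, and nothing is read from any call of Il12rb2 or Cd8a below. Cd4 alone had an unadjusted p of 0.0758, 0.0102 and 0.029 against healthy rats (edgeR), and 8.52%, 7.54% and 5.3% of all genes were higher at an unadjusted p under 0.05. DESeq2 called Cd8a higher at all 3 days and Cd4 at day 10, and 6.01%, 4.44% and 1.25% of all genes. With limma on FPKM, Cd4 was called at day 31, as were 57% of all genes. For hNSCs against control, Cd4 had an unadjusted p of 0.763, 0.865 and 0.739 (edgeR), and DESeq2 called Cd8a lower at day 10 (4.51% of all genes called). Cd8a was at 0 in healthy brain and at 11.8, 7.15 and 2.17 CPM in control rats at day 4, and at day 10 it was at 0, 55.0 and 0 CPM, from replicate 2 alone. At day 31 it was at 0.740, 0 and 0 CPM, so the DESeq2 call of that day rests on 1 library near 0. Il12rb2 was seen at day 31 only, at 2.59, 2.90 and 3.15 CPM in control and 3.18, 0 and 4.48 CPM in hNSCs brain. Brain libraries of day 31 detected 79.9% to 85.8% of annotated genes, against at most 75.1% at the other days and in healthy rats. The part of this in the Il12rb2 values was not tested. With hNSCs, Cd4 was at 19.8, 59.7 and 34.3 CPM at day 4, a log2 difference from control of 0.28 ± 0.91 (SE) (edgeR, adjusted p = 1).

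Of the 88 other T and NK genes, 31 passed the filter in brain, and edgeR called Ptprc of the signalling list higher at days 4 and 10. Ptprc was low in healthy brain and passed the filter through the stroke groups, so nothing is read from its calls. Ptprc encodes CD45, a phosphatase of all white blood cells that activates Lck. It was at 0, 2.44 and 5.63 CPM in healthy and 59.1, 55.4 and 54.4 CPM in control brain at day 4, a log2 fold change of 4.28 ± 0.81 (SE) (edgeR, adjusted p = 0.0142). At day 10 it was at 26.8, 73.2 and 42.6 CPM (adjusted p = 0.0249 with edgeR). The log2 fold change at day 10 was 4.03 ± 0.80 (SE). DESeq2 also called Ptprc on both days, as it did 6.01% and 4.44% of all genes. On these days it was not called with limma on FPKM, nor by edgeR without any 1 of the 3 healthy libraries, without replicate 1 of the control rats at day 4 or without replicate 2 or 3 at day 10. Without replicate 1 at day 10, Lcp2 and Itgal were called too, as were 2.41% of all genes, against 83 of 14515 with all libraries. At day 31, Ptprc was at 35.8, 45.4 and 21.4 CPM, above healthy in all 3 libraries, as were 18.9% of all genes (84.2% in FPKM). It was not called by edgeR (adjusted p = 0.188). DESeq2 and limma called it, as they did 1.25% and 57% of all genes.

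With all 18 stroke libraries of brain against the 3 healthy ones, a contrast added after seeing the data, edgeR called Ptprc and Ubash3a among the 31 genes. Ptprc was higher, with a log2 fold change of 3.87 ± 0.73 (SE) (edgeR, adjusted p = 0.0319), where 0.158% of genes were called higher. Ubash3a, a restrainer of T cell receptor signalling, was called lower, as were 0.0413% of genes. It was at 10.1, 7.97 and 6.75 CPM in healthy brain. In stroke brain it was above 0 only in control rats of day 31, at 2.84, 2.38 and 2.21 CPM. Ubash3a passed the filter through the groups that held it, as Il12rb2 and Cd8a did, so nothing is read from its call. Nor is anything read from that of Ptprc, for the reason given above. In FPKM the healthy and stroke libraries of Ubash3a overlapped. DESeq2 did not call Ubash3a, limma called none of the 31, and without healthy replicate 1 or 3 edgeR called none. Without healthy replicate 2, without replicate 1 of the control rats at day 4 or without replicate 1 of the hNSCs rats at day 31, the call of Ptprc was lost and that of Ubash3a was not.

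Markers of macrophages and microglia, taken as a sum, were also higher in control than in healthy brain at each day. The 12 monocyte and macrophage genes, led by C1qa, summed to 64.0 to 91.7 CPM in healthy brain and to 528 to 1415 CPM in control brain at day 4. At day 10 they summed to 154 to 1945 CPM and at day 31 to 223 to 385 CPM. Macrophages carry both CD4 and CD45, and their part in the values of Cd4 and Ptprc was not tested. For hNSCs against control in brain, edgeR called 0 of the 31 genes on all 3 days, 4, 1 and 1 had an unadjusted p under 0.05 (7.53%, 13.4% and 0.0896% of all genes), and DESeq2 and limma called 0. Without replicate 1 of the hNSCs rats at day 10, edgeR called Vav1, Lef1 and Ifngr2, and 5.12% of all genes. All 3 were at 0 in the other two libraries of that group, which had the fewest counts on annotated genes of the brain set (1123445 and 569136).

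**Figure D3:**
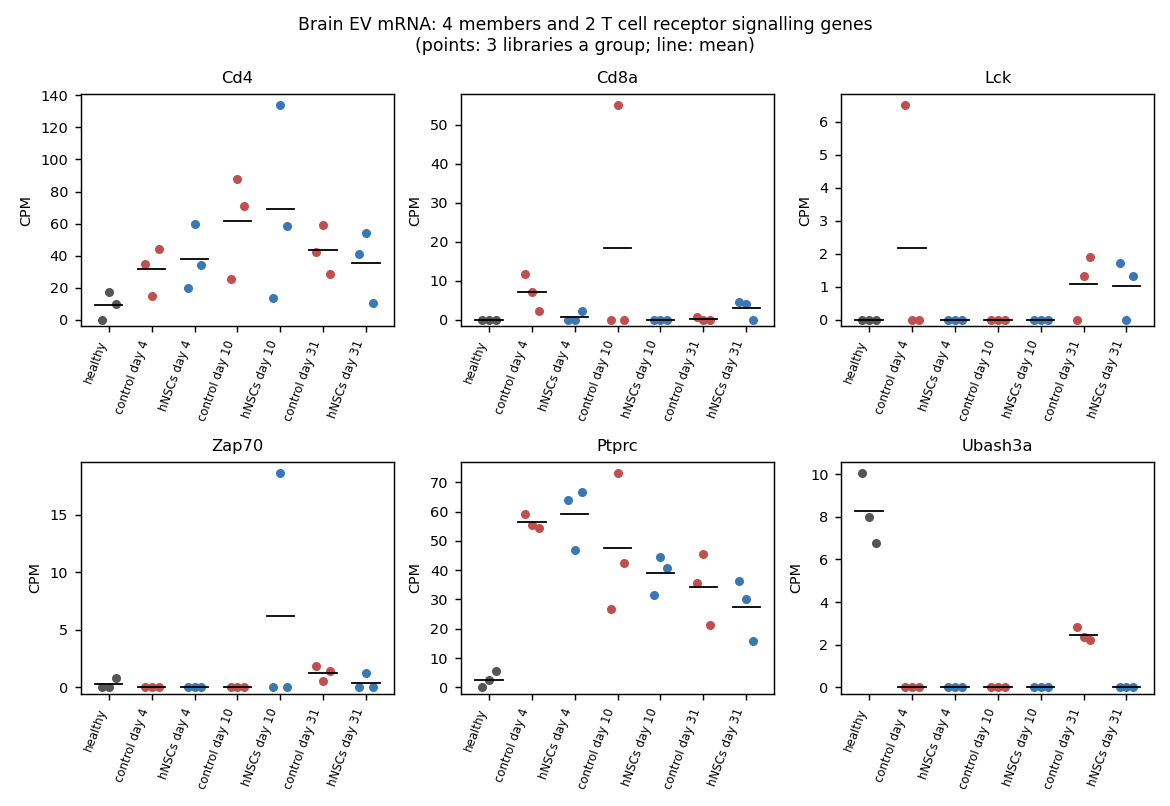
Level in brain EV mRNA, in CPM on a linear axis from 0, of Cd4, Cd8a, Lck and Zap70 and of the signalling genes Ptprc and Ubash3a, for the 7 groups of 3 libraries (points) with the group mean (line). Cd8a, Lck and Zap70 are at 0 in most libraries, Ptprc lies above healthy in every stroke library, and Ubash3a lies below healthy in every stroke library, on the CPM scale.

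MicroRNAs gave a readout of lymphocytes from other libraries, in which each molecule carries a tag (UMI) and was counted once. The 8 miRNAs known to be rich in lymphocytes or in white blood cells at large were tested among 309 known miRNAs of plasma EVs. Their mature sequences, as deposited, are given with the seed (bases 2 to 8, which pair with targets) in capitals.
miR-150-5p: tCTCCCAAcccttgtaccagtg
miR-142-5p: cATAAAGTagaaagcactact
miR-142-3p: tGTAGTGTttcctactttatgga
miR-155-5p: tTAATGCTaattgtgataggggt
miR-181a-5p: aACATTCAacgctgtcggtgagt
miR-181b-5p: aACATTCAttgctgtcggtgggt
miR-146a-5p: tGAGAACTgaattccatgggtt
miR-342-3p: tCTCACACagaaatcgcacccgt
The seed of miR-181a-5p is that of miR-181b-5p, and the other 6 seeds differ from each other.

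All 8 miRNAs were lower in control than in healthy plasma at day 4, 6 of them wholly so, where 15.5% of all miRNAs were. At day 10, 4 of the 8 were wholly lower (10.7% of all miRNAs), and at day 31, 3 were (5.5%). These counts depended on the scaling: in the deposited TPM, a scale added after seeing the data, they were 4, 1 and 2, where 10.4%, 3.24% and 4.85% of all miRNAs were wholly lower. The miRNA that was wholly lower at all 3 days on both scales was miR-342-3p. The lowest log2 fold change was that of miR-342-3p, at 6814, 8578 and 6653 CPM in healthy and 1699.7, 2428 and 3008 CPM in control rats at day 4, a log2 fold change of −1.63 ± 0.38 (SE) (edgeR, adjusted p = 0.0587). At day 10 it was at 3236, 3075 and 3402 CPM and at day 31 at 2152, 1938 and 5469.9 CPM, below all healthy libraries on both days. Thus none of its 9 control libraries reached the healthy range. For miR-150-5p, known from mature lymphocytes, the values were 28638, 22861 and 22363 CPM in healthy and 8214, 10349.8 and 9674 CPM in control rats at day 4, a log2 fold change of −1.39 ± 0.51 (SE) (edgeR, adjusted p = 0.213). At day 31 replicate 3 of the control rats, at 22936 CPM, lay inside the healthy range, and the other two lay below it. Without that replicate, edgeR called 4 of the 8 lower at day 31, namely miR-150-5p, miR-155-5p, miR-181a-5p and miR-342-3p, and 31 of 309 miRNAs in all (10%).

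The log2 fold changes of the other 6 at day 4 were −1.13 ± 0.51 (SE) for miR-155-5p, −0.92 ± 0.59 (SE) for miR-142-5p, −0.76 ± 0.49 (SE) for miR-142-3p, −0.65 ± 0.30 (SE) for miR-146a-5p, −0.65 ± 0.38 (SE) for miR-181b-5p and −0.65 ± 0.31 (SE) for miR-181a-5p. The edgeR test called 0 of the 8 at days 4, 10 and 31, where 0% of miRNAs were called lower, and 4, 2 and 4 were lower at an unadjusted p under 0.05, as were 10%, 4.53% and 8.41% of all miRNAs. DESeq2 called miR-342-3p at day 4 (1.29% of all miRNAs called) and none at the other days, and limma on TPM called none. With all 18 stroke rats against the 3 healthy rats, a contrast added after seeing the data, miR-342-3p was lower in 18 of 18, in CPM and in TPM, with a log2 fold change of −1.26 ± 0.26 (SE) (edgeR, adjusted p = 0.0269), the only 1 of 309 miRNAs called (0.324%). DESeq2 called it too. The edgeR call was lost without the filter on low counts, with limma on TPM, without any 1 of the 3 healthy libraries and without any 1 of 7 of the 18 stroke libraries. Without replicate 3 of the control rats at day 31, miR-150-5p was called as well, among 0.971% of all miRNAs. In all 18 stroke libraries miR-155-5p also lay below the 3 healthy ones, with a log2 fold change of −1.08 ± 0.35 (SE) (edgeR, adjusted p = 0.183), where 0.971% of miRNAs separated this way. In TPM 5 of the 18 stroke libraries lay above the lowest healthy one, so this separation depends on the scaling. For hNSCs against control, edgeR, DESeq2 and limma called 0 of the 8 at each day, with 0, 0 and 1 at an unadjusted p under 0.05 (4.53%, 12.6% and 11.3% of all miRNAs).

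Other blood cell miRNAs served for comparison. The neutrophil and monocyte miR-223-3p had a log2 fold change at day 4 of 0.53 ± 0.43 (SE). The red cell miRNAs miR-451-5p, miR-486 and miR-144-3p had −1.22 ± 0.82 (SE), −1.48 ± 0.93 (SE) and −0.86 ± 0.86 (SE). The groups overlapped for all 4, and edgeR, DESeq2 and limma called none of them at day 4.

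**Figure D4:**
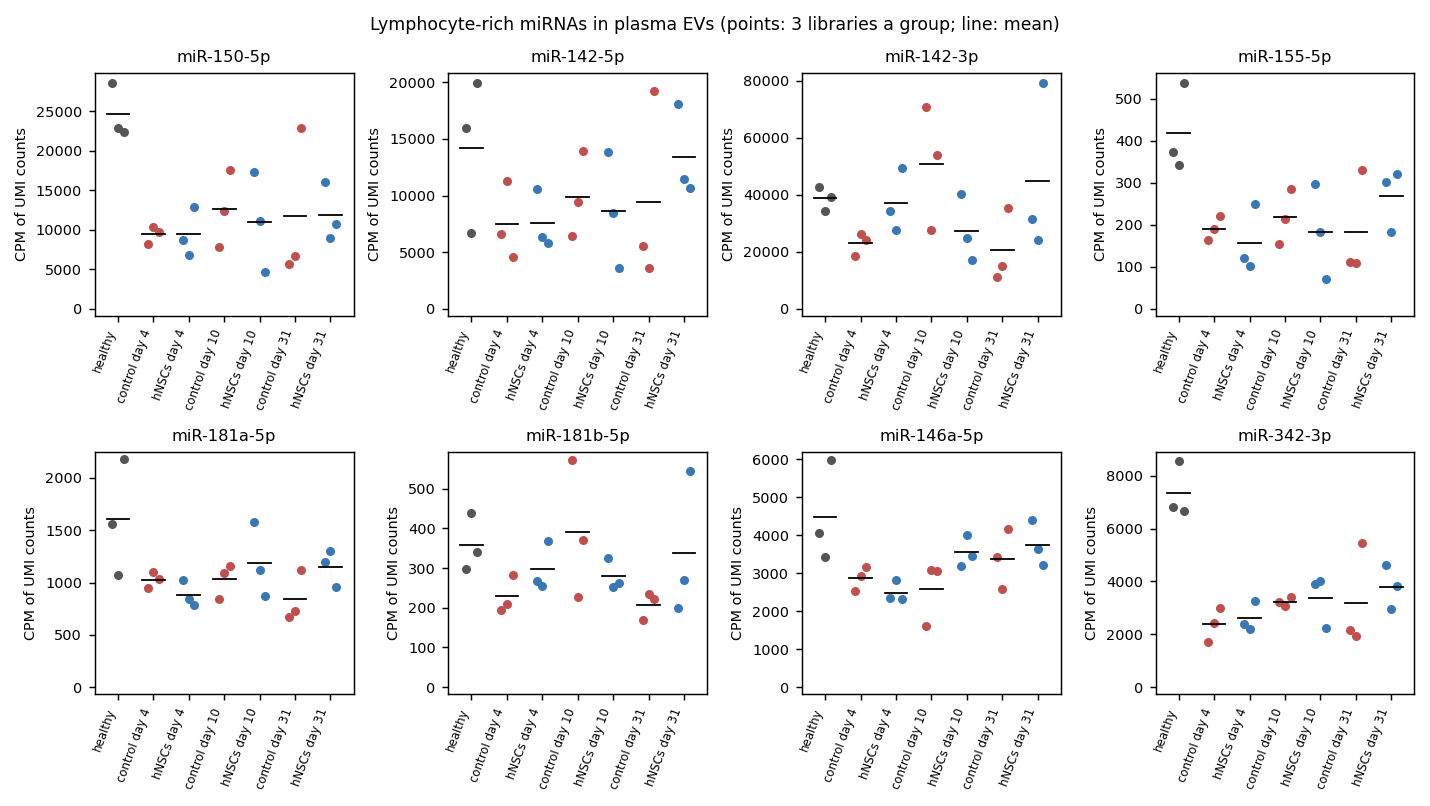
Level of the 8 lymphocyte-rich miRNAs in plasma EVs, in CPM of UMI counts on a linear axis from 0, for the 7 groups of 3 libraries (points) with the group mean (line). For miR-342-3p all 18 stroke libraries lie below the 3 healthy ones, and for miR-150-5p 1 control library of day 31 reaches the healthy range.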

How the data were processed

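Per the labels and the study's methods, EV RNA was isolated by size exclusion from plasma and brain, mRNA libraries came from a stranded total RNA kit at low input and miRNA libraries carried UMIs, in 84 libraries of 4 kinds. The submitters' processing notes name the build Rnor_6.0, and the authors deposited raw counts per gene with FPKM values, and miRNA UMI counts with TPM values. The strand setting of the counting is not given in the sources used here, so Cd3g, Cd3d and Cd3e, which are neighbours, and overlapping genes are uncertain where transcripts overlap. From the deposited counts of annotated genes (309 known miRNAs after filtering), edgeR 4.0.16 (TMM, filterByExpr, quasi-likelihood test, 7-group model per tissue) in R 4.3.3 gave log2 fold changes, with adjusted p under 0.05 and over 1.5-fold as the call. DESeq2 1.42.0, limma 3.58.1 on log2(FPKM + 1) or log2(TPM + 1), no filter, a replicate block, hemoglobin genes left out, single libraries left out and, for overlap of groups, the deposited FPKM or TPM were alternatives. Scripts were tested on simulated data. The named genes were the 10 members, up to 4 called genes of each list and contrast with the largest log2 fold change, all 12 listed miRNAs and the 10 genes most like the members. A gene that the lists hold is included in their counts but is not reported here. The members and lists were chosen with earlier results of these data known.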

Additional observations from a re-analysis of the deposited data

Results flagged for a closer look

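The miRNA libraries of brain EVs lie outside the comparisons above, and 1 lymphocyte-rich miRNA lay above the healthy libraries in all 18 stroke libraries. In the deposited TPM values, miR-142-3p, which white blood cells of all kinds carry, was at 108, 150.4 and 107 in the 3 healthy brain samples. All 18 stroke libraries were higher, and the lowest of them was at 235 TPM. The signal was picked out because every stroke library lay above the highest healthy one. The share of all brain miRNAs that separate this way was not worked out, so nothing is read from the counts of libraries given here. At day 4 the control rats were at 1205, 967 and 915 TPM, at day 10 at 531, 1871 and 1244 TPM and at day 31 at 434, 859 and 262 TPM. The difference was not tested, and TPM shares move when other miRNAs change. Others came close. In 17 of the 18 stroke libraries miR-155-5p, miR-146a-5p and the neutrophil miR-223-3p lay above all healthy ones, and miR-142-5p did in 12. At day 4 miR-155-5p was at 144, 100.1 and 78.7 TPM in control and 2.91, 13.3 and 6.27 TPM in healthy brain, and miR-142-5p at 268, 322 and 337 and 43.7, 60.5 and 96.1 TPM. For miR-150-5p 10 of the 18 lay above all healthy ones. It was at 2902, 2529 and 2825 TPM in healthy brain and 4248, 3576 and 3138 TPM in control brain at day 4. At day 31 it was below all healthy libraries, at 832 to 1139 TPM in control and hNSCs brain. The rest of the list did not rise in this way. For miR-342-3p 2 of the 18 lay above all healthy ones, and for miR-181a-5p and miR-181b-5p 0 did. At day 31 miR-342-3p was at 944 to 1100 TPM, against 2317 to 2704 TPM in healthy brain.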

How the results depend on the processing

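Counts of called genes depended most on the test and on single libraries, and no called fold change turned its sign under the alternatives run. Among the 10 genes in plasma calls are not counted, since these values chose the genes. Of their 60 fold changes, 24 turned under at least 1 alternative. On log2(CPM + 1), 5 of the 60 had another sign than in the fit. In brain no count is taken over the 10 genes, since Il12rb2 and Cd8a passed the filter through the groups that held them. For the other T and NK genes in plasma DESeq2 gave 13, 5 and 8 calls at days 4, 10 and 31. For hNSCs it gave 10, 7 and 7. It called 6.47%, 8.66%, 4.7%, 6.23%, 8.15% and 11.9% of all genes in these comparisons. In the pooled contrasts it gave 3 and 8 calls, and 444 and 1395 of 14013 genes in all. Leaving out 1 library gave 0 to 1 at day 4, for hNSCs at day 4 and for hNSCs pooled. Those fits called 3 to 10, 1 to 44 and 0 to 24 of all 14720 genes. In brain these genes gave 4, 6 and 3 calls with DESeq2 at days 4, 10 and 31, where 6.01%, 4.44% and 1.25% of all genes were called. With limma they gave 0, 0 and 16 at the same days, beside 254, 0 and 8273 of 14515 genes. In the pooled contrast limma called 0 of them and 4 of all genes. Without the filter 1 was called at day 31, and 6 of 16992 genes. With 1 library left out they ranged over 0 to 1 (day 4), 0 to 4 (day 10), 0 to 3 (hNSCs, day 10), 0 to 3 (all stroke rats) and 0 to 1 (hNSCs pooled). The calls over all 14515 genes ranged over 0 to 98, 0 to 350, 0 to 743, 0 to 258 and 0 to 411 in the same order. For the 8 miRNAs DESeq2 gave 1 at day 4, where it called 4 of 309 miRNAs. The pooled contrast gave 0 without the filter and 0 with limma, beside 1 of 593 and 0 of 309 miRNAs. Leaving out 1 library gave 0 to 4 at day 31 and 0 to 2 pooled, beside 0 to 31 and 0 to 3 of 309 miRNAs. The causes were not tested. In plasma Cd3e, Il12rb2 and Prf1 were at 0 in all control libraries of day 4, where a fitted fold has no bound. With the replicate number as a block, none of these counts changed, and the log2 fold change of Lck at day 4 was −2.12. The deviations of same-numbered libraries had a median correlation of −0.0117 in plasma mRNA, −0.00346 in brain mRNA and 0.00914 in plasma miRNA. Single pairs ran from −0.328 to 0.249, −0.123 to 0.298 and −0.822 to 0.608. These medians show no general pairing by number, and pairing of some samples is not excluded. Leaving the hemoglobin genes out changed none of the counts, and 7 of the 10 genes most like the members were shared between CPM and FPKM. The groups of 3 and the genes at 0 limit the precision, and few calls do not show that levels were alike.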
